A study of Mus musculus with 2 samples.

Results

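Natural killer (NK) cells of the pancreatic islets were examined in single-cell RNA sequencing of islet leukocytes from NOD mice, which are prone to autoimmune diabetes. A barcode was taken as an NK member when it had at least 500 detected genes and at most 10% mitochondrial transcripts. It also needed 1 or more unique molecular identifiers (UMIs, counted transcript molecules) of Ncr1 and of Tyrobp, no Cd3d or Cd3e UMI, and at most 1 UMI of Cd79a, C1qa and Lyz2 together. This rule found 144 members among 22466 barcodes that met the gene and mitochondrial limits, 78 of 12252 in the library labelled WT NOD and 66 of 10214 in the library labelled NOD.Cxcl16-/-. Both libraries came from females aged 12 weeks, and the second strain is named for loss of Cxcl16, the ligand of the chemokine receptor CXCR6. Islets were freed with collagenase, picked by hand and dispersed, and live cells with CD45 and without CD31 were sorted. Each group had 1 library, the number of mice behind it is not given in the sources used here, and no difference between the libraries has a replicate check.

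Cxcl16 itself went against the second label: 10062 Cxcl16 UMIs (102 CPM, that is UMIs per 1000000 UMIs) were counted in the library labelled NOD.Cxcl16-/- and 9668 (103 CPM) in WT NOD. These are 3′ tags, and the part of the gene removed in this strain is not given in the sources used here, so they do not check the genotype either way. The name of the library is therefore used below only as its label. The libraries had 13859 and 10554 barcodes, and 45 barcode sequences occurred in both, none of them of an NK member. Members had a median of 4191.5 UMIs in WT NOD (1050 to 41153) and 4461 in the library labelled NOD.Cxcl16-/- (1547 to 13418), and their UMIs summed to 410579 and 325680.

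NK cells are innate lymphocytes that kill without rearranged antigen receptors. They weigh signals from activating receptors, many of which need the adaptors TYROBP, FCER1G or HCST, against inhibitory receptors that read MHC class I molecules. Killing uses perforin, which opens membranes, and granzymes, the proteases that enter through them, and the cells also release chemokines and interferon gamma. Islets of NOD mice are infiltrated by many leukocytes, of which NK cells are a small share.

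The rule used Ncr1, which encodes the NKp46 receptor, and Tyrobp, so their presence in every member is not a result. Ncr1 was at 1 to 16 UMIs with a median of 3 in WT NOD, and at 1 to 18 with a median of 3 in the library labelled NOD.Cxcl16-/-. Just inside the limit, 13 and 11 members had a single Ncr1 UMI. Just outside, 14 and 13 barcodes that met every other condition had no Tyrobp UMI, and 26 and 16 had a Cd3d and Cd3e sum of 1. In all, 204 of 290 barcodes with Ncr1 and Tyrobp in WT NOD and 179 of 256 in the other library had a Cd3d or Cd3e UMI, so most barcodes with both transcripts lay on the T-cell side of the rule.

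The other 4 markers of the label were not part of the rule. Of Klre1, Eomes, Prf1 and Gzma, 3 or 4 were detected in 50 of 78 members in WT NOD and in 47 of 66 in the library labelled NOD.Cxcl16-/-, and none in 9 and 5. Gzma, the most abundant granzyme here, had a UMI in 74.4% and 78.8% of members, against 1.10% and 0.845% of B-cell barcodes, whose median depth was 4515 and 4717.5 UMIs. With every barcode thinned to 2000 UMIs, which left 64 and 63 members, the shares were 70.3% and 77.8%, against 0.385% and 0.0545% of B-cell barcodes. Barcodes with Ncr1, Tyrobp and a Cd3d or Cd3e UMI, under the same Cd79a, C1qa and Lyz2 limit, are called Ncr1+ Cd3+ barcodes. After thinning, 32.4% and 40.2% of these had a Gzma UMI. Eomes, the T-box factor that marks conventional NK cells, was sparser, with a UMI in 47.4% and 45.5% of members and in 32.8% and 25.4% after thinning. Thinned Ncr1+ Cd3+ barcodes had Eomes in 17.6% and 25.2%, and thinned CD8 T barcodes in 13.8% and 14.35%. In the library labelled NOD.Cxcl16-/-, Eomes thus did not set NK members apart from Ncr1+ Cd3+ barcodes. Most members therefore had transcripts of several NK genes that the rule did not use, and some had none of these 4.

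**Figure D1:**
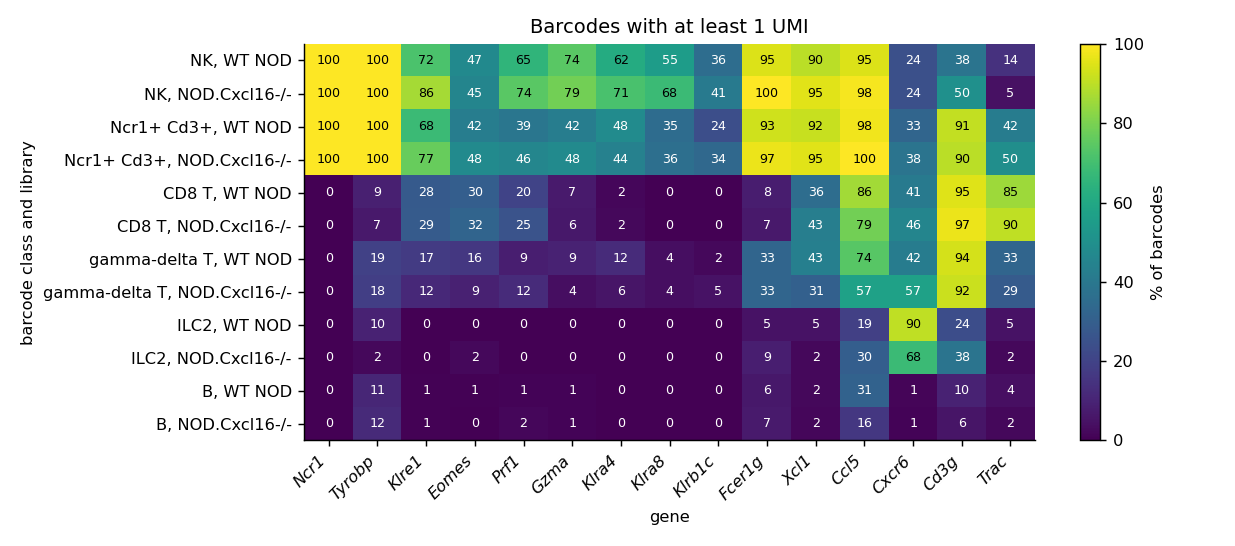
Share of barcodes with at least 1 UMI (colour and printed percentage) of each gene (columns) in barcode classes of the 2 libraries (rows). Ncr1 and Tyrobp are at 100% in NK members by rule, and Gzma is at 74.4% and 78.8% there. Klra4, Klra8 and Klrb1c are near 0 in CD8 T, group 2 innate lymphoid (ILC2) and B-cell barcodes. Ncr1 is at 0 in these classes by rule. The lectin receptor genes were not confined to NK members. After thinning, Ncr1+ Cd3+ barcodes of WT NOD had Klra4 in 31.7%, Klra8 in 21.1% and Klrb1c in 7.04%. In the other library the shares were 32.7%, 19.6% and 12.2%. Thinned gamma-delta T barcodes had 7.53%, 2.15% and 0.538% in WT NOD, and 2.61%, 1.96% and 3.27% in the other library.

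T-cell transcripts were not all absent. Trac, the constant part of the alpha-beta receptor's alpha chain, had a UMI in 14.1% and 4.55% of members, against 85.3% and 90.3% of CD8 T barcodes and 3.998% and 2.32% of B-cell barcodes. Cd3g, a CD3 chain that the rule did not use, had one in 38.5% of members in WT NOD and in 33 of 66 in the other library, and Trdc in 44.9% and 54.5%. Cd5, a T-cell surface receptor, was at 0 in every member, which allows up to 7.31 and 9.21 CPM at a floor of 3 counts. Over the 13 T-cell markers listed, 4 were at 0 in WT NOD and 5 in the library labelled NOD.Cxcl16-/-, Cd3d and Cd3e among them by rule. The summed level was 959.6 and 1253 CPM against 7451 and 7645 CPM in CD8 T barcodes. The rules set part of this contrast, since CD8 T barcodes needed Cd3d or Cd3e and Cd8a or Cd8b1.

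Markers of other classes were low, with 1 exception. All 6 mast cell and granulocyte markers, and the ILC2 genes Il1rl1, Il5, Il13 and Il17rb, were at 0 in members of both libraries. Other genes of the ILC2 list were present: Gata3 had a UMI in 17 of 78 and 7 of 66 members. The 8 genes of that list summed to 192 and 252 CPM in members and to 159 and 228 CPM in CD8 T barcodes. B and plasma cell markers summed to 341 and 381 CPM, against 69192 and 77421 CPM in B-cell barcodes. Myeloid markers summed to 5809 CPM in WT NOD and 1928 CPM in the library labelled NOD.Cxcl16-/-, nearly all of it Cd74 and H2-Aa, genes of MHC class II presentation.

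Those class II transcripts sat in few barcodes. H2-Aa, the class II alpha chain, was at 10 or more UMIs in 7 members of WT NOD (34 to 297) and in 2 of the library labelled NOD.Cxcl16-/- (15 and 172). These barcodes were deep, at 4908 to 41153 and 10174 to 11603 UMIs, and they held 29.99% of all NK UMIs in WT NOD and 6.69% in the other library. They are called the class II-high members below, and the results that turn on them are given with and without them; the limit of 10 was chosen after the values were seen.

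The class II-high members did not share 1 profile. The deepest, with 41153 UMIs, had 744 UMIs of the protease inhibitor gene Cst3, 49 of the chemokine gene Cxcl9 and 24 of Xcr1, the receptor of type 1 conventional dendritic cells, beside 32 of Gzma. The 16960-UMI barcode had 20 of Ccr7 and 6 of Fscn1, genes of mature dendritic cells, and no Gzma. The 4908-UMI barcode had 4 of the cytokine gene Il22 and 9 of Il7r, and no Gzma, Klra4, Ccl5, Xcl1, Eomes or Prf1. In WT NOD, 5 of the 7 class II-high members had 3 or 4 of Klre1, Eomes, Prf1 and Gzma. In the other library, 0 of the 2 did. Of the class II-high barcodes, 4 (all WT NOD) were among the barcodes with the highest doublet scores, where no other NK member was.

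Below the limit, 8 WT NOD members had 2 to 7 H2-Aa UMIs, and 7 of them had under 2000 UMIs in all. In the library labelled NOD.Cxcl16-/-, 1 member had 2. Members under 2000 UMIs numbered 14 and 3. The limit is a count and so depends on depth. A WT NOD member of 1279 UMIs under the limit had 7 of H2-Aa and 26 of Cd74. The class II-high member of 23035 UMIs had 115 and 191, which is no more for its depth. Results without the class II-high members therefore still include some shallow members with much class II for their depth.

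**Figure D2:**
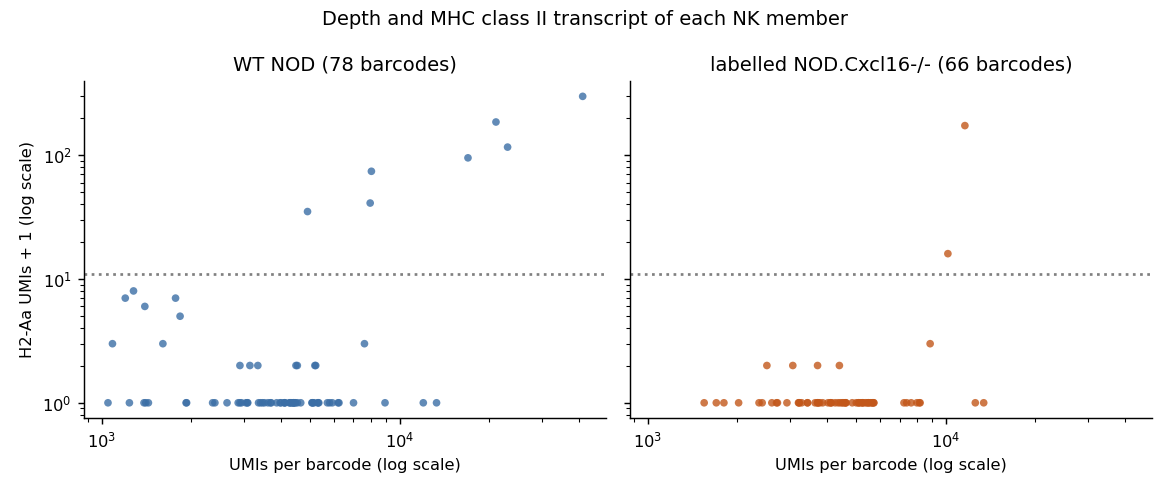
H2-Aa UMIs plus 1 (vertical, log scale) against total UMIs (horizontal, log scale), 1 point per NK member, in each library. Points above the dotted line are the 7 and 2 members with 10 or more H2-Aa UMIs, which include the deepest WT NOD members; a group of shallow WT NOD members lies between 2 and 7 UMIs.

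NK members made up 0.637% of kept barcodes in WT NOD (exact binomial 95% interval 0.504 to 0.794%) and 0.646% in the library labelled NOD.Cxcl16-/- (0.5001 to 0.821%). The intervals lie almost on top of each other. Leaving out the class II-high members gave 0.579% (0.453 to 0.730%) and 0.627% (0.483 to 0.799%). Intervals here cover counting error only, not the spread between mice, and in sorted cells a share depends on every other class that was sorted. Barcodes with Ncr1, Tyrobp and a Cd3d or Cd3e UMI that met the same limit on Cd79a, C1qa and Lyz2 numbered 153 (1.25%) and 107 (1.05%).

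NK members were next set against CD8 T barcodes of the same library, the other cytotoxic lymphocytes of the islet (2685 and 1563 barcodes, with Cd3 and Cd8 UMIs and no Ncr1, Cd4 or Trdc UMI). Of 3085 genes with a mean of at least 50 CPM over the 4 sums (both classes, both libraries), 176 (5.71%) were 2-fold or more higher in NK members in both libraries, and 94 (3.05%) were 2-fold or more lower. The median log2 ratio over these genes was 0.00 and 0.03. The counts were 190 and 106 without the class II-high members. The genes named from this comparison needed 50 CPM in the higher class of both libraries instead, so some of them lie outside the 3085. The classes were cut from the same libraries by transcript rules, so these counts describe the classes.

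Of the 12 genes with the highest ratios on the NK side, 8 were killer lectin receptor genes that lay on chromosome 6 between 128609227 and 130281928 (mm10, GENCODE M21), the NK gene complex: Klra4, Klra7, Klra8, Klra9 and Klra10 of the Ly49 family and Klrb1a, Klrb1b and Klrb1c of the NKR-P1 family. Klra4, which encodes the activating receptor Ly49D, was at 699 CPM in NK members and 2.97 CPM in CD8 T barcodes of WT NOD, and at 1360.2 and 3.70 CPM in the library labelled NOD.Cxcl16-/-. Klra8, which encodes the activating Ly49H, had 161 and 165 UMIs in NK members and 4 and 1 in the far larger CD8 T sums. Klrb1c, of the NKR-P1 family, had 38 and 40 UMIs in NK members and 1 in the CD8 T sum of each library. The other 4 were Clnk, an adaptor of immune receptor signalling, Aoah, which inactivates lipopolysaccharide, Serpinb9b, a protease inhibitor gene, and Itga2, which encodes the NK antigen CD49b, at 87.7 and 67.6 CPM against 1.21 and 0.603 CPM.

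Counts within the Ly49 family are uncertain. Over the last 300 bases of each gene's transcript in the reference, where 3′ reads fall, identity between 7 family members ran from 49.7% to 98.7%, the highest between Klra3 and Klra9. The Ly49 cluster is also known to differ between mouse strains, and reads of NOD mice were counted on the mm10 reference. A level given for 1 Klra gene may therefore include reads of a close copy.

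Promoter windows of 4 genes are shown because these genes mark the NK members: Ncr1 from the rule, Gzma from the killing machinery, and Klra4 and Klra8 from the lectin cluster. Each is the 250 bases before the gene's start in RefSeq (GRCm38.p6), 5′ to 3′ on the gene's strand, at chr7:4337465-4337714 (+), chr13:113100982-113101231 (-), chr6:130067272-130067521 (-) and chr6:130129899-130130148 (-). Capitals mark the RUNX core TGTGGT or its reverse complement ACCACA.
Ncr1: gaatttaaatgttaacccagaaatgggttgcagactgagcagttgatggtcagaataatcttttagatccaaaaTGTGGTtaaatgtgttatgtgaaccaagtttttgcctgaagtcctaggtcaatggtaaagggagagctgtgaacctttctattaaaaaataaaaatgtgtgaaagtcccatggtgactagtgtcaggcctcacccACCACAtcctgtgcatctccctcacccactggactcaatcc
Gzma: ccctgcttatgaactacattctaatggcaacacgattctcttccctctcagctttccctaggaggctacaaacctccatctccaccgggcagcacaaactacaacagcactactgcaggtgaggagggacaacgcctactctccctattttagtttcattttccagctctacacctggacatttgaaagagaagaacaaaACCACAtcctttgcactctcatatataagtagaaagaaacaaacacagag
Klra4: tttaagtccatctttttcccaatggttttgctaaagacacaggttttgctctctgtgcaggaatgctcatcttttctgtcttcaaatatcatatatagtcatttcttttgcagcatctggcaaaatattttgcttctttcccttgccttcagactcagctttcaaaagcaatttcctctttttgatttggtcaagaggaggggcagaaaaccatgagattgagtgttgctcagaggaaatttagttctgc
Klra8: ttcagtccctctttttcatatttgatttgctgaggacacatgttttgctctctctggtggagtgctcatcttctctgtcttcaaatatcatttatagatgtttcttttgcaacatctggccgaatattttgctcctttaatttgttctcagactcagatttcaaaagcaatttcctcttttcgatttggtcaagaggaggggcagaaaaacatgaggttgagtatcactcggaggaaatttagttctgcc

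The Ncr1 window held 2 RUNX cores, the Gzma window 1 and both Klra windows none. RUNX factors are known regulators of lymphocytes, NK cells among them. The core, on either strand, was in 14.1% of 32851 windows of this length, so a single match is common. Of the 12 genes that led the NK side, 4 had one. The T-box half-site TCACACC or its reverse complement GGTGTGA was in none of the 12, against 3.33% of all windows. The 12 were counted by gene, over any window of that gene, and the background by window. Of the 12, 8 also come from the Ly49 and NKR-P1 families. The counts and the background shares are therefore not like for like. The windows of Klra4 and Klra8 were identical at 84.5% of aligned bases. A match is a description of letters and not a binding site.

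The 12 lowest ratios, on the CD8 T side, included Cd5, a receptor that tunes T-cell receptor signals. It had 0 UMIs in NK members of both libraries against 135.7 and 121.8 CPM in CD8 T barcodes, at least 18.6-fold and 13.2-fold lower against a floor of 3 counts per library. Themis, a T-cell selection gene, had 0 and 1 UMIs against 346 and 376 CPM. Tox2 and Dapl1 had 0 in both libraries, Cd6 had 3 and 0, and Pdcd1, the inhibitory receptor PD-1, had 4 and 1 against 85.2 and 98.3 CPM in CD8 T barcodes.

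Interferon-inducible Ifi27l2a was also on the low side, at 110 and 18.4 CPM in NK members against 1711 and 973.5 CPM in CD8 T barcodes. Ube2c, a mitosis gene, was at 17.1 and 9.21 CPM against 253 and 209.6 CPM. Fam169b, Sgms1, Adam19 and BE692007 completed the 12, each with 1 to 3 UMIs in the members of a library. The 12 cell-cycle genes listed summed to 623.5 and 132 CPM in NK members and to 2143.9 and 1707 CPM in CD8 T barcodes. A barcode was called cycling when 2 or more of the 12 had a UMI; this held for 12.8% (6.32 to 22.3%) and 7.58% (2.51 to 16.8%) of NK members, and for 37.0% and 26.4% of CD8 T barcodes.

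Between the libraries, few genes in NK members were far apart. Of 1123 genes with at least 100 UMIs over both libraries, 3 (0.267%) were 2-fold or more higher in the library labelled NOD.Cxcl16-/- and 22 (1.96%) were 2-fold or more lower, together 25 (2.23%). The median log2 ratio of all 1123 was 0.04. Once the class II-high members were left out, 886 genes had 100 UMIs, 0 (0%) were 2-fold higher and 1 (0.113%) was 2-fold lower.

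The 3 on the higher side were Ubxn4, Tox and Ubald2. Tox, a nuclear factor needed for NK development, was at 99.9 CPM in WT NOD and 230.3 CPM in the library labelled NOD.Cxcl16-/-. Its log2 ratio was 1.20 (95% counting interval 0.64 to 1.79), and 0.68 (0.08 to 1.31) without the class II-high members. Ubxn4, a factor of protein degradation at the endoplasmic reticulum, had a log2 ratio of 1.29 (0.74 to 1.88), and 1.45 without them. Ubxn4 was the 1 of the 3 still past 2-fold on the remaining members.

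On the lower side, the 12 lowest were led by genes of the class II-high members. Cxcl9 was at 431 CPM in WT NOD and 27.6 CPM in the library labelled NOD.Cxcl16-/-. This is -3.92 on the log2 scale, and -0.06 (-6.38 to 6.21) without those members. Cst3 went from -3.02 to -0.22 when they were left out, and Basp1 from -1.55 to 1.595. Tbc1d4, with 58 and 43 of its 130 WT NOD UMIs in 2 of them, was at -1.97 with them and -0.84 (-3.11 to 1.09) without. H2-Aa, H2-Ab1, H2-Eb1 and Cd74 had log2 ratios of -1.85, -1.65, -1.73 and -1.51. Over the remaining members these were -2.79, -2.65, -1.20 and -1.59 at far lower levels, Cd74 being at 369 and 122 CPM, and the shallow WT NOD barcodes with 2 to 7 H2-Aa UMIs stayed in.

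Some genes of the lower side kept their ratio when the class II-high members were left out. Zfp36, whose protein speeds the decay of cytokine transcripts, was at 304 and 79.8 CPM, a log2 ratio of -1.92 (-2.60 to -1.31), and at 223 and 62.5 CPM without them, -1.82 (-2.65 to -1.08). It had a UMI in 51.3% of WT NOD members and 22.7% of the others, and in CD8 T barcodes its log2 ratio was -0.19. After thinning, Zfp36 had a UMI in 31.25% and 12.7% of NK members. The shares were 24.65% and 17.8% of Ncr1+ Cd3+ barcodes. Tuba1b, a tubulin gene, was at -1.49 and, without them, at -1.57 (-2.33 to -0.87). In all, 8 of the 22 remained 2-fold or more lower without the class II-high members, though only Cd74 still had 100 UMIs.

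**Figure D3:**
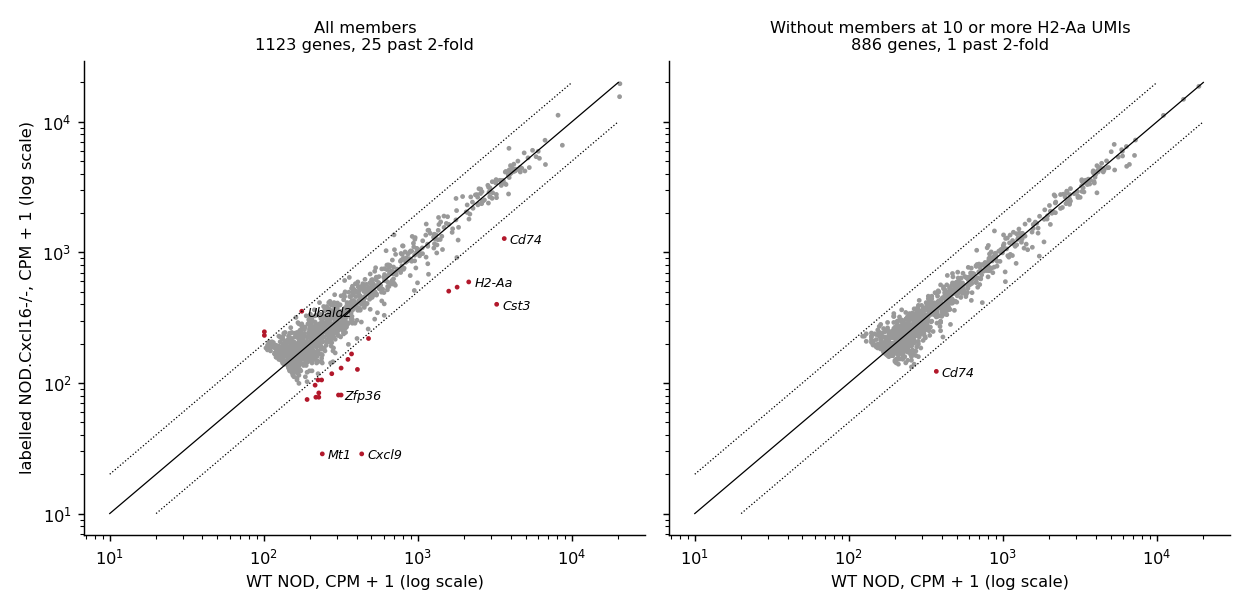
CPM plus 1 of summed UMIs of NK members in the library labelled NOD.Cxcl16-/- (vertical) against WT NOD (horizontal), both on log scales, 1 point per gene with 100 or more UMIs; the solid line is equality, dotted lines are 2-fold apart, and red points are past 2-fold. Left, all members, with 25 of 1123 genes past 2-fold; right, without the class II-high members, with 1 of 886 (Cd74).

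The killing machinery list had 14 genes, of which 9 had 100 UMIs. None was 2-fold or more higher in the library labelled NOD.Cxcl16-/-, 1 (Lamp1) was 2-fold lower, and 8 had a log2 ratio above 0, with a median of 0.55 beside 0.04 over all 1123 genes. The median was 0.35, beside 0.02, without the class II-high members. Gzma was at 3902 CPM in WT NOD (Poisson interval 3713 to 4098) and 6261 CPM in the library labelled NOD.Cxcl16-/- (5992 to 6539). These became 5277 and 6709 CPM without the class II-high members, a log2 ratio of 0.35 (0.25 to 0.44) in place of 0.68. In single members Gzma ranged from 0 to 115 UMIs (median 11.5) in WT NOD and from 0 to 205 (median 24) in the other library, so members overlapped widely.

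Prf1, perforin, was at 287 and 473 CPM, and at 379 and 507 CPM without the class II-high members, a log2 ratio of 0.42 (0.06 to 0.79). Gzmb, the granzyme that triggers caspases, was at 334 and 608 CPM, but a single member held 58 of the 137 WT NOD UMIs and another held 45 of the 198. Without the class II-high members it was at 473 and 648 CPM, a log2 ratio of 0.45 (0.13 to 0.78). Serpinb9, which protects the killer from its own granzyme B, was at 229 and 411 CPM, and at 285 and 428 CPM without them. Fasl, a death ligand, was at 199.7 and 273 CPM, a log2 ratio of 0.45 (0.00 to 0.90), and at 271 and 293 CPM without them, 0.11 (-0.34 to 0.57). Srgn, the granule proteoglycan, was at 1478 and 1551 CPM, a log2 ratio of 0.07 (-0.10 to 0.24). Lamp1, a lysosome membrane gene, was at 224 and 104 CPM, with 40 of its 92 WT NOD UMIs in 1 class II-high barcode, and at 125 and 112 CPM without the class II-high members.

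Chemokine transcripts were abundant. Ccl5, which attracts T cells, monocytes and NK cells, was at 8127.5 and 11219.6 CPM, a log2 ratio of 0.47 (0.40 to 0.53). Over the remaining members it was at 11014 and 11194 CPM, a log2 ratio of 0.02 (-0.05 to 0.09), so the libraries no longer differed beyond counting error. Xcl1, which draws dendritic cells that carry XCR1, was at 1768 and 2585 CPM with those members and at 2366 and 2771 CPM without, a log2 ratio of 0.23 (0.08 to 0.38).

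Xcl1 had a UMI in 89.7% and 95.5% of members and in 35.9% and 42.9% of CD8 T barcodes. It was not particular to NK members. After thinning, it was in 76.6% and 85.7% of them and in 80.3% and 86.9% of Ncr1+ Cd3+ barcodes. For Ccl5 these shares were 92.2% and 96.8% of NK members, and 92.96% and 95.3% of Ncr1+ Cd3+ barcodes. Ccl4 was at 1476 and 1894.5 CPM, a log2 ratio of 0.36 (0.20 to 0.52), and at 1948 and 1905 CPM without the class II-high members, -0.03 (-0.20 to 0.14). Ifng, interferon gamma, was at 183 and 190.4 CPM, a log2 ratio of 0.06 (-0.45 to 0.56), and at 254 and 204 CPM without them, -0.31 (-0.83 to 0.19). Both signs turned, and neither interval without those members leaves out 0. Tnf showed how 1 barcode can set a sum: 31 of its 36 UMIs in the library labelled NOD.Cxcl16-/- came from 1 class II-high member, and over the remaining members it was at 10.4 and 13.2 CPM. Of the 12 cytokines and chemokines, 6 had 100 UMIs, none was past 2-fold in either direction, and their median log2 ratio was 0.35 with and -0.02 without the class II-high members.

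Receptors and adaptors followed the same course. All 5 activating receptors and adaptors with 100 UMIs, of 13 listed, had a log2 ratio above 0. Their median was 0.28, beside 0.04 over all 1123 genes. Without the class II-high members 3 of 5 were above 0, with a median of 0.07 beside 0.02. These 5 include Ncr1 and Tyrobp, the genes by which the members were chosen. Fcer1g, the adaptor of CD16 and NKp46, was at 1361.5 and 1848 CPM, and at 1729 and 1889 CPM without them. Klrk1, the NKG2D receptor, was at 365 and 457.5 CPM, a log2 ratio of 0.32 (-0.01 to 0.66). None of these genes was 2-fold apart.

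The list of inhibitory receptors held 17 genes, 7 with 100 UMIs, and their median log2 ratio was 0.34 with and 0.02 without the class II-high members. It includes Klra4 and Klra8, which encode activating Ly49 receptors. Klra4 was the furthest apart of them, at 699 and 1360.2 CPM, a log2 ratio of 0.96 (0.74 to 1.18), and at 880.1 and 1458 CPM without those members, 0.73 (0.50 to 0.96). It had a UMI in 61.5% and 71.2% of members, with a median of 2 and 6 UMIs per member and a highest of 14 and 19. Klra1, the inhibitory Ly49A, was at 1245 and 1257 CPM without the class II-high members, Klra7 at 598 and 573 CPM, and Klra8 at 536 and 543 CPM, each within counting error of equal.

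Klrd1, the CD94 chain that pairs with NKG2 receptors, was at 555 and 586.5 CPM, a log2 ratio of 0.08 (-0.21 to 0.36), and at 717 and 628.5 CPM without the class II-high members, -0.19 (-0.48 to 0.10). Its partner gene Klrc1 had 33 and 36 UMIs. Lag3, an inhibitory receptor better known in T cells, had 13 and 2 UMIs, too few to place.

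**Figure D4:**
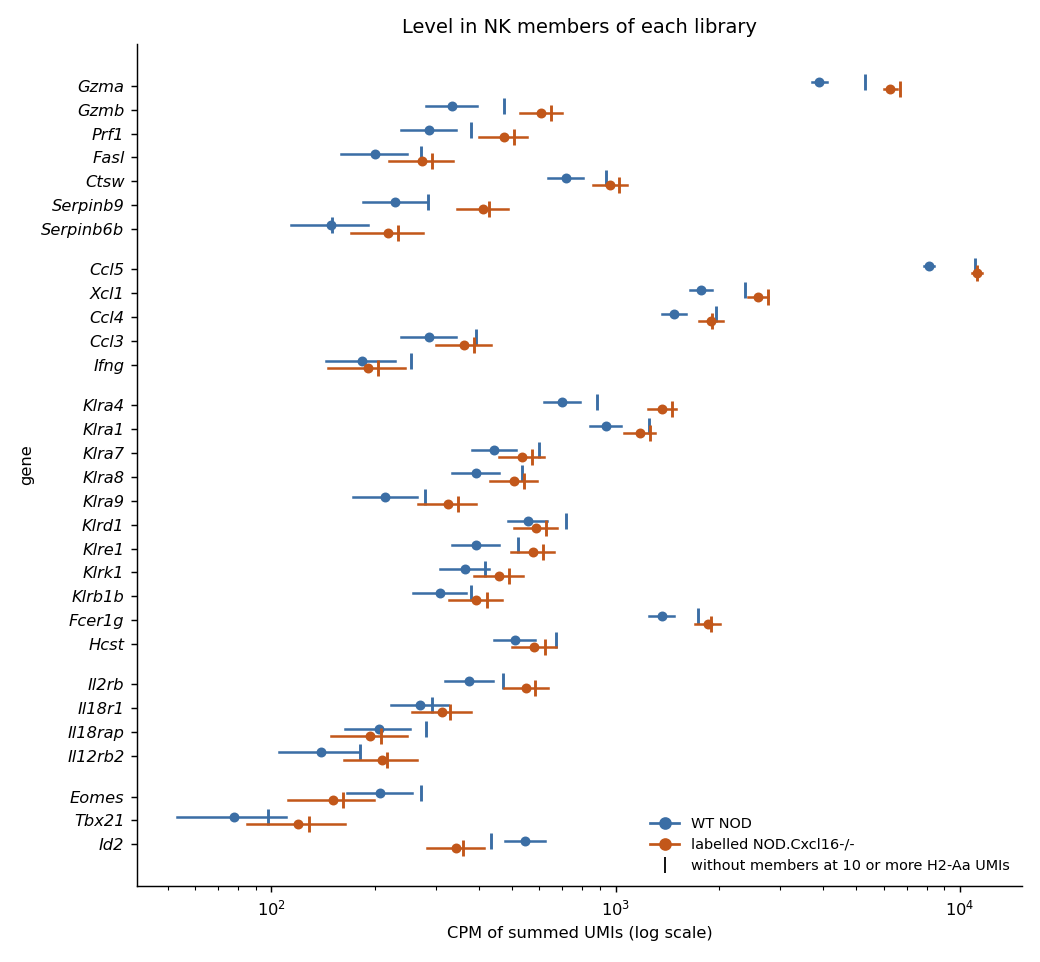
Level of each gene (rows, grouped by role) in NK members, in CPM of summed UMIs on a log scale, for WT NOD (blue) and the library labelled NOD.Cxcl16-/- (orange). Points are all members with 95% Poisson intervals as lines, and vertical ticks leave out the class II-high members; the WT NOD ticks of Ccl5, Fcer1g and Klra1 lie close to those of the other library, and those of Gzma and Klra4 lie below.

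Cytokine receptors and factors gave smaller contrasts. Il2rb, the chain that NK cells use for interleukins 2 and 15, was at 375 and 549.6 CPM, and its log2 ratio of 0.55 became 0.31 (-0.02 to 0.64) without the class II-high members. Over that list, 9 of 16 genes had 100 UMIs, none was past 2-fold, and the median was 0.21 with and -0.02 without them. Eomes was at 207 and 150.5 CPM, a log2 ratio of -0.46 (-0.9983 to 0.06), and at 271 and 161 CPM without them, -0.75 (-1.30 to -0.22). Tbx21, the T-bet factor, was at 77.9 and 119.7 CPM (interval of the log2 ratio -0.09 to 1.34).

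Ikzf2, Helios, was at 168 and 61.4 CPM, but 1 WT NOD member held 31 of its 69 UMIs. Id2, the factor that holds back the adaptive fate, was at 546 and 344 CPM, and 54 of its 224 WT NOD UMIs came from the deepest class II-high barcode; without the class II-high members it was at 435 and 359 CPM. Nkg7, a granule membrane gene, was at 1559 and 1873 CPM, and at 2077 and 1991 CPM without them, where its log2 ratio turned from 0.26 to -0.06 (-0.23 to 0.10).

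Cxcr6, the receptor of the CXCL16 ligand, was looked at for the name of the strain. It was at 109.6 CPM in WT NOD (45 UMIs, in 24.4% of members) and 123 CPM in the library labelled NOD.Cxcl16-/- (40 UMIs, in 24.2%), with a log2 ratio of 0.16 (-0.49 to 0.81). Without the class II-high members it was at 146 and 132 CPM, a log2 ratio of -0.15 (-0.81 to 0.51). With all barcodes thinned to 2000 UMIs, 12.5% and 12.7% of members had a UMI, against 27.2% and 29.6% of CD8 T barcodes and 0.449% and 0.273% of B-cell barcodes. At this depth no difference between the libraries was detectable.

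Other trafficking genes varied by direction. Cxcr4, the CXCL12 receptor, was at 151 and 67.6 CPM, a log2 ratio of -1.15 (-1.93 to -0.44), and -1.25 (-2.06 to -0.51) without the class II-high members. With 62 and 22 UMIs, it lies under the limit of 100. Cxcr3, the receptor of CXCL9, had 19 and 32 UMIs, and Ccr2 was at 168 and 196.5 CPM, and at 212 and 201 CPM without those members. Of the 14 genes listed, 6 had 100 UMIs and none was past 2-fold, with a median of -0.15 (-0.26 without the class II-high members).

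Members with and without a Cxcr6 UMI differed in both libraries. Without the class II-high members, 16 of 71 in WT NOD and 16 of 64 in the library labelled NOD.Cxcl16-/- had one, at a median depth of 4207.5 and 5517 UMIs against 3867 and 4307 for the rest. A Cxcr6 UMI is more easily seen in a deep barcode, and levels are compared as CPM within each library. Single barcodes are not replicates, so the split is a description. The Poisson intervals below take each UMI as independent and leave out the spread between members. Separate intervals therefore do not show a difference beyond that spread. Over all WT NOD members, Gzma had a mean of 5081 CPM per barcode with a standard deviation of 6305 CPM.

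Eomes was at 172 CPM (85.7 to 307) in WT NOD members with a Cxcr6 UMI and 299.9 CPM (232 to 381) in those without; in the library labelled NOD.Cxcl16-/- it was at 20.2 CPM (2.45 to 73.0) and 229 CPM (168.5 to 305). The intervals overlapped in the first library and not in the second. Gzma was at 3839 and 5689.6 CPM in WT NOD and at 1940.2 and 9012 CPM in the other library. Klra7 was at 375 and 662.5 CPM, and at 121 and 790.5 CPM. Klra1, Klra4, Klra8 and Prf1 were also lower beside a Cxcr6 UMI in both libraries, with separate intervals.

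Other genes lay on the opposite side. Cd7, an early lymphoid receptor, was at 952 CPM (728 to 1223) with and 380.5 CPM (304 to 470.5) without a Cxcr6 UMI in WT NOD, and at 1061 and 244 CPM in the library labelled NOD.Cxcl16-/-. Rgs1, which dampens chemokine signalling in tissue lymphocytes, was at 1498 and 595 CPM, and at 1354 and 551 CPM. Il7r, the interleukin 7 receptor, was at 156 and 76.1 CPM, with overlapping intervals, and at 202 and 24.4 CPM, with separate ones. Ltb, Klrb1b and Tmem176b were likewise higher beside a Cxcr6 UMI in both libraries, Ltb with overlapping intervals in WT NOD and Tmem176b from 6 and 3 UMIs in the members without one.

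**Figure D5:**
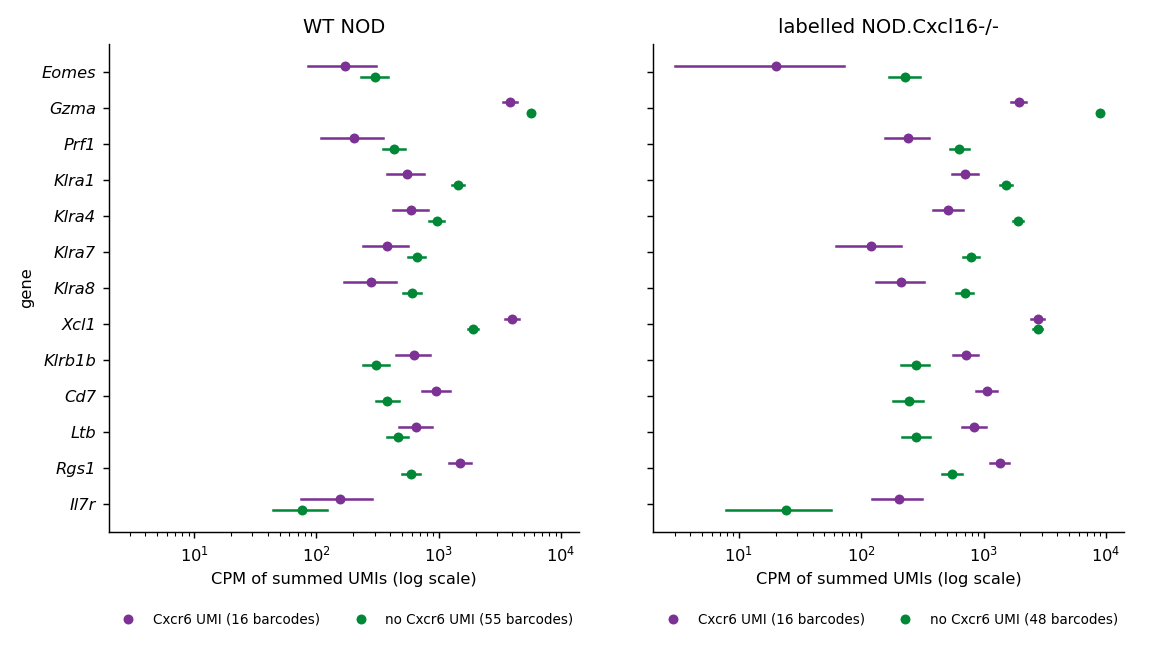
Level in CPM of summed UMIs (log scale) of genes (rows) in NK members with (purple) and without (green) a Cxcr6 UMI in each library, class II-high members left out; lines are 95% Poisson intervals, drawn from 3 CPM where they reach lower. Eomes, Gzma and the Klra genes are lower, and Cd7, Rgs1 and Klrb1b higher, beside a Cxcr6 UMI in both panels; Xcl1 is higher beside one in the WT NOD panel and level in the other.

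CD27 and CD11b (Itgam) mark stages of NK maturation in mice, the first early and the second late. Without the class II-high members, 31 of 71 members in WT NOD had Cd27 alone, 4 both, 7 Itgam alone and 29 neither. In the library labelled NOD.Cxcl16-/- the counts were 20, 9, 6 and 29 of 64. Cd27 alone thus made up 43.7% (31.9 to 55.9%) and 31.2% (20.2 to 44.1%), intervals that overlap, and at this depth a member with neither UMI cannot be staged.

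Genes of early activation and tissue handling were mostly lower in the library labelled NOD.Cxcl16-/-. Of 16 listed, 13 had 100 UMIs. Of these, 4 were 2-fold or more lower (Fos, Fosb, Jun and Zfp36), beside 22 (1.96%) of all 1123 genes, and none was higher. A log2 ratio under 0 was found for 11, and the median was -0.39 beside 0.04 over all 1123 genes. Among the remaining members 8 of the 13 were under 0, 1 was 2-fold lower and the median was -0.22. Fos, an immediate early factor, had a log2 ratio of -1.13 (-1.54 to -0.73), and of 0.21 (-0.31 to 0.74) without those members. Jun, its partner, stayed lower, at -1.22 with and -0.83 (-1.38 to -0.30) without them.

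Nr4a1, a factor that follows receptor stimulation, was at 185 and 58.3 CPM from 76 and 19 UMIs, and at 149.6 and 55.9 CPM without the class II-high members, a log2 ratio of -1.40 (-2.32 to -0.58). Its relative Nr4a2 was at 377.5 and 469.8 CPM, a log2 ratio of 0.31 (-0.02 to 0.65). Hsp90aa1, a heat shock chaperone, was at 524 and 715 CPM, 0.45 (0.18 to 0.72). In CD8 T barcodes the log2 ratios of Jun and Nr4a1 were -0.04 and -0.13. After thinning, Jun had a UMI in 32.8% and 23.8% of NK members, and Nr4a1 in 32.8% and 9.52%. In Ncr1+ Cd3+ barcodes the shares also fell, from 44.4% to 22.4% for Jun and from 23.2% to 13.1% for Nr4a1. Gamma-delta T barcodes had 38.2% and 39.2% for Jun, and 10.2% and 13.7% for Nr4a1. Lower shares were thus not particular to NK members. These genes react to cell isolation, and each library was isolated once, so isolation and group cannot be told apart.

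The interferon list had 16 genes, of which 3 reached 100 UMIs. Their median log2 ratio was -0.20 with and 0.94 without the class II-high members. The 0.94 is the value of Bst2, the middle gene of the 3. Bst2 had under 100 UMIs over the remaining members, so this median does not describe the list. Bst2, an interferon-induced gene that tethers viruses to the cell surface, was at 190.0 and 166 CPM, and at 80.01 and 155 CPM without them, a log2 ratio of 0.94 (0.20 to 1.74). Ifi27l2a had 45 and 6 UMIs, all 6 of them in 1 member, and its log2 ratio was -2.51 (-4.09 to -1.34), against -0.81 in CD8 T barcodes. The 17 Rsad2 and 10 of the 11 Ifit1 UMIs in the library labelled NOD.Cxcl16-/- came from the class II-high barcode of 11603 UMIs.

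Cell-cycle transcripts rested on few members. Over 12 genes they summed to 623.5 CPM in WT NOD (549.5 to 705) and 132 CPM in the library labelled NOD.Cxcl16-/- (95.5 to 178), and to 598 and 138 CPM without the class II-high members. Pclaf, which acts at replication forks, had 60 and 4 UMIs, 24 of the 60 in 1 class II-high barcode, and Mki67 was in 6 and 1 members. The counts of members called cycling, 10 of 78 and 5 of 66, have overlapping intervals.

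NK members carried the class I molecules that such receptors read. B2m, the class I light chain, was at 2146 and 1796 CPM (1934 and 1797 CPM without the class II-high members), H2-K1 at 1588 and 1637 CPM and H2-D1 at 2492 and 3067 CPM. Of 7 genes listed, 5 had 100 UMIs, none was past 2-fold, and the median log2 ratio was -0.05. Islet hormone transcripts were scarce: Ins2 had 28 and 31 UMIs, in 7.69% and 18.2% of members, and 18 of them in each library came from 1 class II-high barcode.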

How the data were processed

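The deposited files hold raw UMI counts per gene and barcode, which the authors made with Cell Ranger 7.0.1 on build mm10, per the file headers and the submitters' processing notes; filters applied before deposit are not given in the sources used here. The members, gene lists and comparison classes were chosen with earlier results of these data known. Counts of each class were summed per library, scaled to CPM and compared as log2 ratios with 1 CPM added, for genes with at least 100 UMIs over both libraries (against CD8 T barcodes, counts of genes used a mean of 50 CPM over the 4 sums, and genes named needed 50 CPM in the higher class of both libraries). Symbols beginning Gm or ending Rik, immunoglobulin, T-cell receptor and mitochondrial genes were not named. The genes named are the 12 furthest apart in each direction that are past 2-fold, plus the 20 lists. Intervals are exact, at 95% (Poisson for levels, Clopper-Pearson for shares, conditional binomial for ratios), and cover counting error only. Those of levels and ratios leave out the spread between members. No test was made, since each group is 1 library. Doublet scores came from simulated pairs of barcodes, with 0.8% per 1000 barcodes counted as removed (1358 and 862); they were used only as an alternative. The fold rule was tested on simulated data. Positions come from GENCODE M21 (32158 of 32285 gene IDs matched) and promoters from RefSeq. Python 3.11.15, numpy 2.4.6 and scipy 1.17.1 were used. Alternatives changed the member rule, the summary per barcode, the scaling, the added CPM and the UMI minimum.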

Additional observations from a re-analysis of the deposited data

Results flagged for a closer look

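Among the genes named or listed, 2 had log2 ratios of opposite direction in NK members and CD8 T barcodes, each at least 1.5-fold and with counting intervals that leave out 0. Klra9, a Ly49 receptor gene, had a log2 ratio of 0.60 in NK members and -0.65 in CD8 T barcodes, where it had 16 and 2 UMIs. Without the class II-high members its NK log2 ratio was 0.32 (-0.11 to 0.76), under 1.5-fold. Tbc1d4, which acts in glucose transporter traffic, had -1.97 in NK members and 0.66 in CD8 T barcodes. Of its 130 WT NOD UMIs, 58 and 43 lay in 2 class II-high members. Its NK log2 ratio was -0.84 (-3.11 to 1.09) without the class II-high members and 0.016 without the highest doublet scores. Without the class II-high members, neither NK ratio met both limits. The differences between the classes were not tested.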

How the results depend on the processing

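With 1 library a group, no result has an error between mice, and 78 and 66 members limit the precision of a gene with few UMIs. No paired analysis was possible because each group has 1 library. The NK share stayed inside its own interval except when Cd3g and Trac were also required at 0, which gave 0.359% in WT NOD and 0.3035% in the library labelled NOD.Cxcl16-/-. Against 3 genes higher and 22 lower, the counts were 10 higher with 3 of 6 other NK genes in place of Ncr1, 1 and 13 with Cd3g and Trac also at 0, 8 higher with Cd79a, C1qa and Lyz2 all at 0, 11 lower without the highest doublet scores, 8 and 13 from the mean of each barcode's CPM, 1 and 6 after thinning to 2000 UMIs, and 5 and 8 without cycling members. A minimum of 20 UMIs gave 152 and 255 genes and of 1 UMI 1814 and 2953, since 5045 and 12819 genes then entered. Leaving out members with 10 or more H2-Aa UMIs, chosen after seeing the data, gave 0 and 1. Among the named ratios past 2-fold, those of 4 genes reversed: Basp1 (1.595), Fos (0.21) and Fosb (0.035) without the class II-high members, and Tbc1d4 (0.016) without the highest doublet scores; Basp1 was also at 0.24 after thinning, where the cause was not tested. Over all 1123 genes, 231 had a ratio of the other sign without the class II-high members, 228 of them under 2-fold before, Bst2, Ccl4, Ifng and Nkg7 included. The counts against CD8 T barcodes stayed within 1.5 times under the 3 alternatives run for them (CD8 T barcodes with Ccl5 and no cycling call, 10 CPM added, and without the class II-high members). Of 1312 other gene and list values under the alternatives, 183 moved beyond their counting interval.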
